A study of Mus musculus with 16 samples.

Results

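Transcripts of 10 genes of transforming growth factor beta (TGF-beta), myostatin and bone morphogenetic protein (BMP) signalling were examined in C2C12 cells, chosen by gene symbol from the 31053 genes of the deposited table. They are the ligand genes Mstn, Tgfb1, Tgfb2, Tgfb3, Inhba and Bmp4, the ligand antagonist Fst, the receptor Tgfbr2, and the inhibitory Smads Smad6 and Smad7. C2C12 is a mouse myoblast line that fuses into myotubes when the culture becomes confluent, and FAM134B is an endoplasmic reticulum (ER) membrane protein that acts as a receptor for the autophagy of ER (ER-phagy). mRNA was sequenced from 16 samples, 4 biological replicates each of myoblasts and myotubes of wild-type (WT) cells and of a Fam134b knockout (Fam134b KO). The study asked what changes in the transcriptome when cells that lack FAM134B are driven through differentiation. The knockout line was made with a lentiviral CRISPR-Cas9 vector carrying a pair of guide RNAs followed by antibiotic selection, and the methods do not say whether it was grown from 1 clone, so an effect of the knockout and of this line cannot be told apart. Cells of all 4 groups were kept in serum-containing growth medium, and myotubes formed spontaneously at confluence. The labels give the genotype and stage in the sample titles and no day of culture, while a separate genotype field reads unknown.

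Ligands of the TGF-beta family are secreted as dimers and bring together type II and type I serine/threonine kinase receptors, which phosphorylate Smad transcription factors. TGF-betas, activin A (a dimer of the Inhba product) and myostatin signal through Smad2 and Smad3 and restrain myoblast differentiation and muscle growth, whereas BMPs signal through Smad1, Smad5 and Smad9. Follistatin binds activins and myostatin and keeps them from their receptors, and Smad6 and Smad7 are feedback inhibitors inside the cell.

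Values are normalized counts, that is, reads per gene divided by a factor for each sample, and differences are on the log2(normalized count + 1) scale. A gene was tested when its normalized count was at least 10 in at least 4 samples, which held for 10767 genes and for 9 of the 10 members, Mstn being the exception. A gene was called when its Benjamini-Hochberg adjusted p from limma was under 0.05. Between 1484750 and 3287461 reads per sample fell on genes, with the fewest in Fam134b KO myotubes 4 and 2 (1484750 and 1790524). Within Fam134b KO myotubes, samples deviated from their group mean by 0.448 to 0.691 (root mean square over genes, log2 scale), against 0.260 to 0.440 elsewhere. Values of Fam134b KO myotubes thus carry the larger error. The limma fit estimated 1 spread per gene over all 16 samples. Its SEs, intervals and p-values therefore do not reflect this difference between groups. Fam134b itself had a normalized count of 207 ± 42.0 in WT myoblasts, 232 ± 61.6 in WT myotubes, 27.5 ± 5.49 in Fam134b KO myoblasts and 41.8 ± 14.0 in Fam134b KO myotubes (SD, n = 4), with no overlap between genotypes at either stage. Reads that remain in the knockout do not show an intact transcript, since the position of the reads within the gene was not analysed here.

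Of 12 myogenic marker genes, 11 were found by symbol in the table, and their summed normalized count ranged in myoblasts from 2470 to 3776 for WT and from 302 to 404 for Fam134b KO, and in myotubes from 23790 to 35090 for WT and from 11550 to 14890 for Fam134b KO. The muscle lineage was therefore visible in WT cells and in both myotube groups, and was weakest in Fam134b KO myoblasts, where Myog (myogenin) had no read and 7 of the 11 markers had a read in every sample. The summed count of 6 proliferation genes was, in the same order of groups, 3156 to 3875, 2516 to 4285, 1730 to 2791 and 725 to 1235, and that of 6 fibroblast markers was 40.1 to 73.3, 75.9 to 107, 79.2 to 264 and 226 to 513. The fibroblast sum rested on Pdgfrb in myoblasts and on Pdgfrb and Dcn in myotubes, while Thy1, Lum and Dpt were at 2.70 or less in every sample. Among 6 macrophage markers Ptprc, Adgre1 and Itgam were at 0 in every sample, and the list summed to at most 26.1, with Csf1r its highest gene in Fam134b KO myotubes. Among adipocyte markers Adipoq, Plin1 and Lep were at 0, and Pparg had a mean of 18.2 in Fam134b KO and 4.28 in WT myoblasts. Among osteoblast markers Alpl and Ibsp were at 0, whereas Runx2 had means of 128.8 and 61.1 in WT myoblasts and myotubes and 97.0 and 52.9 in those of the knockout. Endothelial markers summed to at most 2.59. Smooth-muscle markers summed to 6032 to 13920 over all samples, mainly from Acta2, with Myh11 at 1.94 or less. The myogenic, proliferation and fibroblast levels moved with the groups compared below, and their part in the results for the members was not tested. In RNA from whole cultures, fewer cells of a type and less RNA per cell cannot be told apart.

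The members lie on several chromosomes of the mouse genome (GRCm38/mm10, GENCODE M21). Mstn (ENSMUSG00000026100) is at chr1:53061640-53068079, Tgfb1 (ENSMUSG00000002603) at chr7:25687002-25705077, Tgfb2 (ENSMUSG00000039239) at chr1:186622792-186705989, Tgfb3 (ENSMUSG00000021253) at chr12:86056745-86079041, Inhba (ENSMUSG00000041324) at chr13:16011851-16031621, Bmp4 (ENSMUSG00000021835) at chr14:46383520-46390669, Fst (ENSMUSG00000021765) at chr13:114452290-114458951, Tgfbr2 (ENSMUSG00000032440) at chr9:116084293-116175360 and Smad6 (ENSMUSG00000036867) at chr9:63953076-64022059. Smad7 has the identifier ENSMUSG00000025880. Exons of Tgfb2, Tgfb3, Fst and Bmp4 overlap annotated genes on the opposite strand, and whether counting used strand is not given in the sources used here. Of these neighbours, Gm29491 at Tgfb2 had 1 read over the 16 samples, and Gm47040 at Fst and Gm15217 at Bmp4 had 0 reads. Gm37804 and Gm48008 at Tgfb3 are not among the genes of the deposited table, so their reads could not be checked.

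Promoter sequences from RefSeq (GRCm38.p6), of the 250 bases before the annotated gene start, were matched by symbol for 7 of the 10 members, all but Tgfb3, Fst and Smad7. Those of Mstn, Tgfb2, Inhba and Tgfbr2 are shown because they stand for the main patterns described below, namely no reads (Mstn), a rise with differentiation in both genotypes (Tgfb2 and Tgfbr2) and a fall (Inhba). Capitals mark the E-box CANNTG, the core that MyoD-type muscle regulators bind, searched on both strands, where it reads the same. Each sequence runs 5′ to 3′ on the strand of its gene.
Mstn promoter, chr1:53061390-53061639, plus strand: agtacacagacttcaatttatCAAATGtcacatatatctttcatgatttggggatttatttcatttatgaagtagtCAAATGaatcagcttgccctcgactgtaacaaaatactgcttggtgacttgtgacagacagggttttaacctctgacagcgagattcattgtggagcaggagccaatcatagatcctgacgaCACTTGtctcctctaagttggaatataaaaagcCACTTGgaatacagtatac
Tgfb2 promoter, chr1:186705990-186706239, minus strand: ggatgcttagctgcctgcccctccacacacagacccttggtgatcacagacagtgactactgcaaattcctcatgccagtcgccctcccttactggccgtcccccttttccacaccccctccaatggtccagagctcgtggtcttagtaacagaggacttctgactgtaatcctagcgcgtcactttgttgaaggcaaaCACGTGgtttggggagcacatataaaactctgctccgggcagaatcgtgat
Inhba promoter, chr13:16011601-16011850, plus strand: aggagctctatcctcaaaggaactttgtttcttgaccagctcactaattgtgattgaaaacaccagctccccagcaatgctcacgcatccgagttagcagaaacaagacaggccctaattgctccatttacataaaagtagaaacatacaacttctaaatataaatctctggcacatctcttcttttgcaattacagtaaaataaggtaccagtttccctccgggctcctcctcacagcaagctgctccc
Tgfbr2 promoter, chr9:116175364-116175613, minus strand: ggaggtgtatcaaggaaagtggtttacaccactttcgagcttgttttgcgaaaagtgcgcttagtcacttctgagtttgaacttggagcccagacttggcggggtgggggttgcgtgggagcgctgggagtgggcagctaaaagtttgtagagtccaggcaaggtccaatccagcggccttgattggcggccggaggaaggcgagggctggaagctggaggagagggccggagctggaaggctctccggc

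The Mstn promoter held 4 E-boxes and the Tgfb2 promoter held 1, while those of Inhba and Tgfbr2 held 0. An E-box was present in 66.2% of all 32851 promoters of this length, so these matches describe the sequence only. The letters TATAAA (either strand) were found 29 bases before the start of Mstn, 31 bases before that of Tgfb2 and 91 bases before that of Inhba, and 12.4% of all promoters held them. The Smad-binding letters CAGAC (either strand) occurred 2 times in the Mstn promoter, 2 times in that of Tgfb2, 1 time in that of Tgfbr2 and 0 times in that of Inhba, and 42.2% of all promoters held them. The GC-rich letters GGCGCC, known from BMP-responsive elements, were in none of the 7 member promoters, against 9.59% of all promoters.

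Mstn encodes myostatin, the muscle-secreted ligand that limits muscle mass. No read was counted on Mstn in any of the 16 samples, of 44692941 reads on genes in all. A count of 0 allows up to 3 reads per sample, which is a normalized count of 2.49 to 5.99 or a CPM of 0.913 to 2.02, and this limit covers counting error only. Mstn mRNA was thus not detectable at this depth in myoblasts or myotubes of either genotype, and no difference between groups could be tested. The promoter shown above was therefore not accompanied by a measured transcript in these cells.

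During differentiation of WT cells, Tgfb1, Tgfb2, Tgfb3, Fst and Tgfbr2 rose and Inhba fell, while Bmp4, Smad6 and Smad7 did not pass the test. These are 6 of the 9 tested members, where 23.0% of all tested genes were called (13.8% higher and 9.16% lower). Of all calls in this comparison 60.1% were higher, a share that was 49.7% after quantile normalization. The median log2 difference over the 9 members was 1.06, beside -0.0078 over all tested genes. In Fam134b KO cells, Tgfb2, Tgfb3, Fst and Tgfbr2 rose and no member fell, so that 4 of 9 were called, where 33.4% of all tested genes were called (17.3% higher and 16.1% lower). The median of the members was 0.51 there, beside -0.02 over all tested genes. Groups of myoblasts and myotubes did not overlap for 6 members in WT cells and 4 in Fam134b KO cells, beside 28.0% and 27.4% of all tested genes. The plot of normalized counts by sample shows these values.

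**Figure D1:**
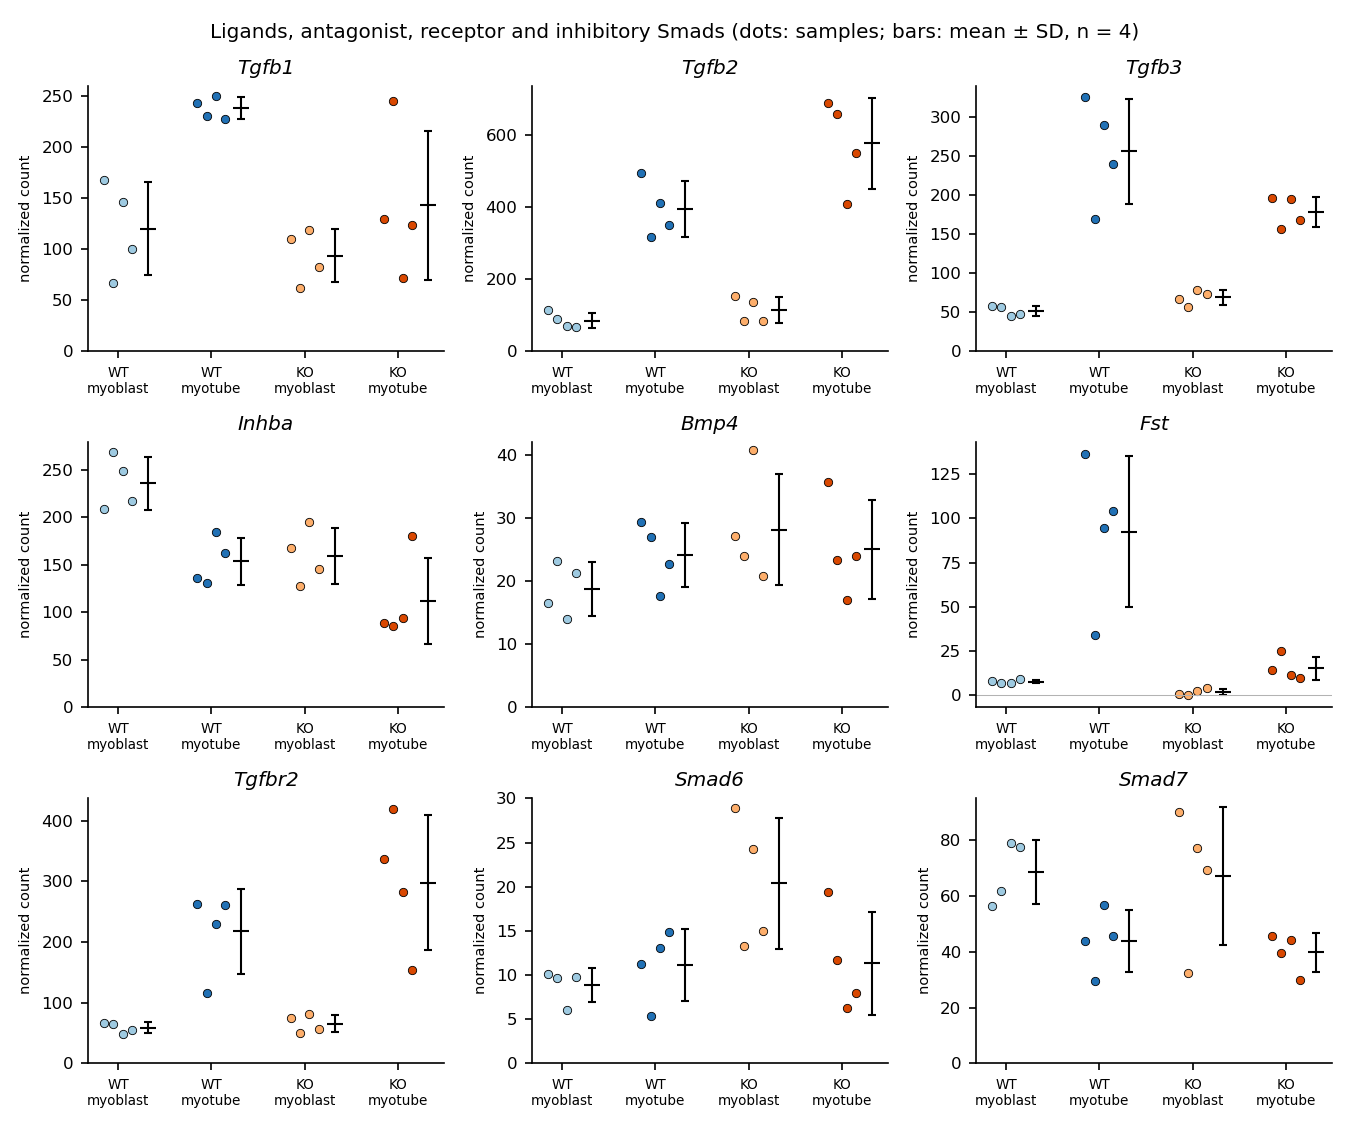
Normalized count of the 9 tested members on a linear axis from 0, by group. Dots are samples and bars are the mean ± SD of 4 samples; Fst, Tgfb2, Tgfb3 and Tgfbr2 are higher in the myotube groups than in the myoblasts of the same genotype in all samples, and the highest Fst value in Fam134b KO myotubes (24.8) lies below the lowest in WT myotubes (34.2).

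Tgfb1 encodes the TGF-beta isoform best known as an inhibitor of myoblast fusion. Its normalized count was 167, 66.5, 146 and 99.8 in WT myoblasts and 243, 230, 250 and 227 in WT myotubes (replicates 1 to 4). It was 110, 62.3, 119 and 82.6 in Fam134b KO myoblasts and 130, 245, 72.0 and 124 in Fam134b KO myotubes. All WT myotube samples were above all WT myoblast samples, whereas Fam134b KO myotubes ranged from a value among the myoblasts (72.0) to a value among the WT myotubes (245). In WT cells the difference was 1.06 on the log2 scale (SE 0.31, adjusted p = 0.0157 with limma). This call rested on the low sample WT myoblast 2, without which the difference was 0.81 (adjusted p = 0.0669). In Fam134b KO cells it was 0.51 (SE 0.31, adjusted p = 0.204), and without Fam134b KO myotube 3 it was 0.80 (adjusted p = 0.0433).

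Tgfb2 and Tgfb3 encode the other TGF-beta isoforms. Tgfb2 had a normalized count of 113, 89.7, 71.1 and 67.7 in WT myoblasts and 496, 318, 413 and 352 in WT myotubes. In Fam134b KO cells it was 154, 83.0, 137 and 84.3 in myoblasts and 689, 659.5, 409 and 552 in myotubes. The myotube and myoblast samples did not overlap in either genotype. The rise was 2.20 on the log2 scale in WT cells (SE 0.23, adjusted p = 5.11e-07) and 2.35 in Fam134b KO cells (SE 0.23, adjusted p = 9.41e-08). Tgfb3 had a normalized count of 58.1, 56.9, 45.0 and 47.2 in WT myoblasts and 325, 169, 289 and 240 in WT myotubes. In Fam134b KO cells it was 66.5, 57.3, 78.9 and 73.4 in myoblasts and 196, 156, 194 and 168 in myotubes. Again no myotube sample reached down to a myoblast sample of its genotype. The rise of Tgfb3 was 2.25 in WT cells (SE 0.20, adjusted p = 4.66e-08) and 1.36 in Fam134b KO cells (SE 0.20, adjusted p = 1.99e-05).

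Inhba, which encodes the subunit of activin A, went the other way. Its normalized count was 209, 269, 248 and 217 in WT myoblasts and 136, 130, 185 and 162 in WT myotubes. The Fam134b KO samples were at 168, 128, 195 and 146 in myoblasts and 89.1, 86.1, 93.6 and 180 in myotubes. WT myotubes were all below WT myoblasts, while in Fam134b KO cells 3 myotube samples were below every myoblast sample and myotube 4 was not. In WT cells Inhba fell by 0.62 on the log2 scale (SE 0.22, adjusted p = 0.0412), a call that was lost in 9 of the 16 fits that left out a sample, with an adjusted p of up to 0.110 without WT myotube 1 (a fall of 0.57), and with no filter on low counts (adjusted p = 0.0546). The samples concerned were WT myoblasts 1 to 4, WT myotubes 1, 2 and 4 and Fam134b KO myoblasts 1 and 4. In Fam134b KO cells the difference was -0.56 (SE 0.22, adjusted p = 0.0509), and without Fam134b KO myotube 4 it was -0.81 (adjusted p = 0.00193) and without Fam134b KO myoblast 2 it was -0.66 (adjusted p = 0.0334). The same difference was called with all 16 samples after total scaling or quantile normalization (adjusted p = 0.0285 and 0.0242), with voom (adjusted p = 0.0293), with sample weights (adjusted p = 0.00618) and with a minimum count of 50 (adjusted p = 0.0475), so that its side of the threshold depends on the processing.

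Bmp4, a BMP ligand that can divert C2C12 cells from the muscle to the bone lineage, was at a normalized count of 14.0 to 23.1 in myoblasts and 17.7 to 29.4 in myotubes of the WT, and of 20.9 to 40.8 in myoblasts and 17.1 to 35.8 in myotubes of the knockout. The groups overlapped throughout. The differences between myotubes and myoblasts were 0.35 in WT cells (95% interval -0.27 to 0.97, adjusted p = 0.427) and -0.17 in Fam134b KO cells (95% interval -0.79 to 0.46, adjusted p = 0.702).

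Fst encodes follistatin, the secreted antagonist of activins and myostatin. Its normalized count was 8.30, 6.75, 7.01 and 8.91 in WT myoblasts and 136, 34.2, 94.8 and 104 in WT myotubes. In Fam134b KO myoblasts it was 0.875, 0, 2.6 and 4.17, from 1, 0, 3 and 5 reads, and in Fam134b KO myotubes it was 14.5, 24.8, 11.7 and 9.99. The 4 groups did not overlap, in rising order Fam134b KO myoblasts, WT myoblasts, Fam134b KO myotubes, WT myotubes. Fst rose by 3.26 on the log2 scale in WT cells (SE 0.48, adjusted p = 5.24e-05) and by 2.66 in Fam134b KO cells (SE 0.48, adjusted p = 2.32e-04). As a ratio of summed reads scaled to the samples, Fst was 11.9 times higher in WT myotubes than in WT myoblasts (403 against 33 reads, 95% counting interval 8.33 to 17.5) and 7.84 times higher in Fam134b KO myotubes than in Fam134b KO myoblasts (50 against 9 reads, interval 3.82 to 18.1). With reads this few, the fitted rise in Fam134b KO cells depends on the pseudocount and was 1.54 with a pseudocount of 5, where it was still called. The counting intervals cover counting error only and not the spread between samples.

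Tgfbr2 encodes the type II receptor for the TGF-betas. Its normalized count was 66.4, 65.6, 49.0 and 54.4 in WT myoblasts and 263, 115, 230 and 262 in WT myotubes. Among knockout samples it was 74.4, 50.6, 80.7 and 55.9 in myoblasts and 336, 419, 282 and 154 in myotubes. All myotube samples lay above all myoblast samples of both genotypes. The rise was 1.81 on the log2 scale in WT cells (SE 0.28, adjusted p = 9.66e-05) and 2.11 in Fam134b KO cells (SE 0.28, adjusted p = 7.30e-06). The receptor transcript thus rose together with the transcripts of the Tgfb2 and Tgfb3 ligands in both genotypes.

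Smad7 blocks the type I receptors of the TGF-beta branch and Smad6 acts mainly on the BMP branch, and both are themselves induced by these pathways. Smad7 had a normalized count of 56.3, 61.7, 79.1 and 77.5 in WT myoblasts, 44.0, 29.7, 56.7 and 45.6 in WT myotubes, 90.1, 32.4, 77.2 and 69.2 in Fam134b KO myoblasts and 45.5, 39.4, 44.1 and 30.0 in Fam134b KO myotubes. Group means were lower in myotubes of both genotypes, but the samples overlapped. The differences were -0.65 in WT cells (SE 0.28, adjusted p = 0.102) and -0.67 in Fam134b KO cells (SE 0.28, adjusted p = 0.0736). Fam134b KO myoblast 2 was the low sample, and without it the difference was -0.98 in Fam134b KO cells (adjusted p = 0.00503) and -0.65 in WT cells (adjusted p = 0.0447). Smad6 rested on 4 to 33 reads per sample. The normalized count was 10.1, 9.64, 6.0 and 9.80 in WT myoblasts and 11.2, 5.40, 13.0 and 14.9 in WT myotubes, with a difference of 0.24 on the log2 scale (SE 0.40, adjusted p = 0.718). The Fam134b KO samples were at 28.9, 13.3, 24.3 and 15 in myoblasts and 19.4, 11.7, 6.30 and 7.99 in myotubes, with a difference of -0.84 (SE 0.40, adjusted p = 0.113). Without Fam134b KO myotube 1 this difference was -1.12 (adjusted p = 0.0445).

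**Figure D2:**
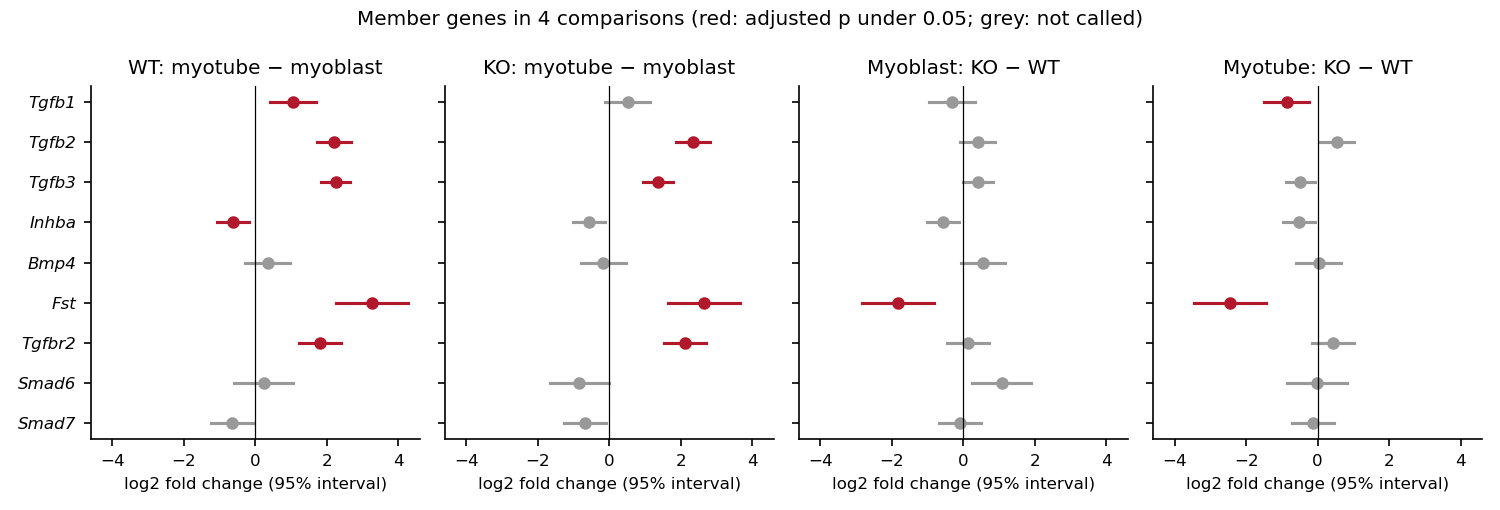
Log2 difference of the 9 tested members in the 4 comparisons of groups, with 95% intervals from limma; red marks an adjusted p under 0.05 and grey the rest. Fst is red in all 4 panels, and Tgfb2, Tgfb3 and Tgfbr2 are red in both differentiation panels.

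The knockout was compared with WT at each stage. In myoblasts, Fst was lower in Fam134b KO cells and none of the other members passed the test, so that 1 of 9 was called, where 15.8% of all tested genes were called (7.26% higher and 8.50% lower). In myotubes, Fst and Tgfb1 were lower in Fam134b KO cells, 2 of 9, where 23.4% of all tested genes were called (9.74% higher and 13.7% lower). These shares of the members are near those of all tested genes. The median log2 difference over the members was 0.14 in myoblasts and -0.13 in myotubes, beside -0.01 and -0.07 over all tested genes.

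Fst was lower in Fam134b KO myoblasts, with a difference of -1.84 on the log2 scale (SE 0.48, adjusted p = 0.0105) and in Fam134b KO myotubes, with a difference of -2.44 (SE 0.48, adjusted p = 9.39e-04). All 4 Fam134b KO samples were below all 4 WT samples at each stage. As a ratio of scaled reads, the WT level was 4.06 times that of the knockout in myoblasts (33 against 9 reads, 95% counting interval 1.90 to 9.65) and 6.16 times in myotubes (403 against 50 reads, interval 4.59 to 8.44). In myoblasts, where the reads were few, the call was lost with a pseudocount of 5 (-0.92, adjusted p = 0.0624) and with voom weights on the recovered reads (-2.31, adjusted p = 0.0919). In myotubes the call held under every alternative in which Fst was tested. With a minimum count of 50 Fst did not pass the filter and was not tested at either stage. The summed myogenic markers were also lower in Fam134b KO cells at both stages, and their part in the Fst difference was not tested.

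Tgfb1 was lower in Fam134b KO myotubes, with a difference of -0.86 on the log2 scale (SE 0.31, adjusted p = 0.0448), with means of 143 ± 73.1 and 237 ± 10.8 normalized counts in Fam134b KO and WT (SD, n = 4). The samples overlapped, since Fam134b KO myotube 2 (245) was above 3 WT myotubes, and an exact two-sided permutation test of the log2 values gave p = 0.114. The call was lost in 11 of the 16 fits that left out a sample, with adjusted p of 0.0505 to 0.165 (WT myoblasts 3 and 4, each of the WT myotubes, Fam134b KO myoblasts 1 and 4, and Fam134b KO myotubes 1, 3 and 4). Without Fam134b KO myotube 3 the difference was -0.58 (adjusted p = 0.165), and without Fam134b KO myotube 2 it was -1.17 (adjusted p = 0.00470). It was also lost with no filter (adjusted p = 0.0609), with total scaling (adjusted p = 0.0508), with the 8 samples compared alone (adjusted p = 0.0577) and with the replicate number as a block (adjusted p = 0.0571). In myoblasts the difference was -0.31 (95% interval -0.95 to 0.32, adjusted p = 0.566).

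Among the other ligands, Inhba was lower in each Fam134b KO myoblast sample (128 to 195) than in each WT myoblast sample (209 to 269), with a difference of -0.57 on the log2 scale (SE 0.22, adjusted p = 0.0781). Without Fam134b KO myotube 4, a sample outside this comparison that enters the shared estimate of spread, the same difference had an adjusted p of 0.0210. In myotubes the Inhba difference was -0.51 (SE 0.22, adjusted p = 0.0934), and without the high Fam134b KO myotube 4 it was -0.76 (adjusted p = 0.00487). Tgfb2 differed by 0.39 in myoblasts (adjusted p = 0.288) and by 0.54 in myotubes (95% interval 0.06 to 1.02, adjusted p = 0.0964), the latter being 0.70 without Fam134b KO myotube 3 (adjusted p = 0.0414). Tgfb3 differed by 0.41 in myoblasts (adjusted p = 0.191) and by -0.48 in myotubes (95% interval -0.89 to -0.07, adjusted p = 0.0845), the latter being -0.67 without WT myotube 2 (adjusted p = 0.0150). Bmp4 differed by 0.54 in myoblasts (95% interval -0.08 to 1.17, adjusted p = 0.254) and by 0.03 in myotubes (95% interval -0.60 to 0.65, adjusted p = 0.963). The ligand transcripts thus did not share a direction between genotypes, and none but Tgfb1 was called.

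The receptor Tgfbr2 differed by 0.14 on the log2 scale in myoblasts (95% interval -0.45 to 0.72, adjusted p = 0.820) and by 0.44 in myotubes (95% interval -0.15 to 1.02, adjusted p = 0.287). Smad7 differed by -0.11 in myoblasts (adjusted p = 0.857) and by -0.13 in myotubes (adjusted p = 0.792). Smad6 was higher in each Fam134b KO myoblast (13.3 to 28.9) than in each WT myoblast (6.0 to 10.1), with a difference of 1.07 (SE 0.40, adjusted p = 0.0786) that was not called. It was called with the 8 samples compared alone (adjusted p = 0.0199) and with sample weights (1.34, adjusted p = 9.70e-04). In myotubes the Smad6 difference was -0.01 (95% interval -0.84 to 0.82, adjusted p = 0.990). Groups did not overlap in myoblasts for 3 members, Fst, Inhba and Smad6, where 26.8% of all tested genes had groups that did not overlap. In myotubes this held for 1 member, Fst, beside 19.4% of all tested genes.

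Whether differentiation moved a member differently in the 2 genotypes was tested by the interaction of genotype and stage. Limma called 0 of the 9 members, where 3.45% of all tested genes were called, 1 member had an unadjusted p under 0.05, and voom also called 0. That member was Tgfb3, whose rise was smaller in Fam134b KO cells, with an interaction of -0.89 on the log2 scale (95% interval -1.47 to -0.31, unadjusted p = 0.00464 and adjusted p = 0.0896 with limma). Without the low sample WT myotube 2 the value was -1.07 (adjusted p = 0.0210). For Fst the interaction was -0.60 (95% interval -2.02 to 0.82, adjusted p = 0.699), which moved with the treatment of low counts from -0.17 (voom) to -1.26 (pseudocount of 5) and was called in no setting. For Tgfb2 it was 0.15 (95% interval -0.53 to 0.82, adjusted p = 0.863) and for Tgfbr2 0.30 (95% interval -0.53 to 1.13, adjusted p = 0.754). For Smad6 it was -1.08 (95% interval -2.25 to 0.10, adjusted p = 0.331). The Fst transcript was thus lower in the knockout at both stages, while the interval of its interaction includes 0.

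By level, neighbouring groups of Tgfb2 and Tgfbr2 separated only between Fam134b KO myoblasts and WT myotubes, those of Tgfb3 only between the knockout's myoblasts and its myotubes, and those of Inhba only between Fam134b KO myoblasts and WT myoblasts (exact permutation p = 0.0286 each, the smallest that 4 against 4 samples allow). Neighbouring groups of Fst separated at all 3 steps (exact permutation p = 0.0286 each). For Tgfb1, Bmp4, Smad6 and Smad7 every pair of neighbours overlapped, with exact permutation p of 0.0571 to 1.

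The tested genes whose log2 values followed a member most closely over the 16 samples are given as a description, since the samples share 4 groups. For Tgfb2 they were Ptprs, Cpq and Col5a1 (Pearson r 0.978, 0.977 and 0.969) and for Tgfbr2 Cpq, Itm2b and Tmem86a (0.966, 0.966 and 0.958), with the peptidase gene Cpq in both. For Tgfb3 they were Ldb3, Pfkm and Adamts12 (0.968, 0.964 and 0.961), where Ldb3 encodes a Z-disc protein and Pfkm the muscle phosphofructokinase. For Fst they were Slco3a1, Pxn and Cdh15 (0.966, 0.965 and 0.953), where Cdh15 is M-cadherin, a muscle adhesion molecule. For Tgfb1 they were Rrp12, Ociad1 and Nckap5l (0.941, 0.936 and 0.934), for Inhba Mrpl13, Nek7 and G3bp2 (0.895, 0.895 and 0.888) and for Smad7 Aagab, Senp5 and Eef1a1 (0.918, 0.863 and 0.855). For Smad6 they were Lrch2, Lgr4 and Serpinb8 (0.866, 0.816 and 0.808) and for Bmp4 Ctla2a, Ifi204 and Mut (0.745, 0.719 and 0.696), the least close of the 9 sets.

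The wider pathway was followed through 101 further genes in 6 lists, of which 72 were tested. Of the 29 that were not, 9 had no read in any sample, among them the ligand genes Bmp2, Bmp7, Gdf6 and Gdf10, the receptor gene Acvr1c and the response genes Alpl, Dlx5 and Cdkn2b. In WT differentiation 26 of the 72 rose and 6 fell (44.4% called, beside 23.0% of all tested genes), and in Fam134b KO differentiation 23 rose and 8 fell (43.1%, beside 33.4%). Between genotypes, 10 were higher and 11 lower in Fam134b KO myoblasts (29.2%, beside 15.8%) and 18 were higher and 9 lower in Fam134b KO myotubes (37.5%, beside 23.4%). The median log2 difference over the 72 genes was 0.23, 0.32, 0.04 and 0.12 in these 4 comparisons, beside -0.01, -0.02, -0.01 and -0.07 over all tested genes. The bar plot of called genes gives the counts by list.

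**Figure D3:**
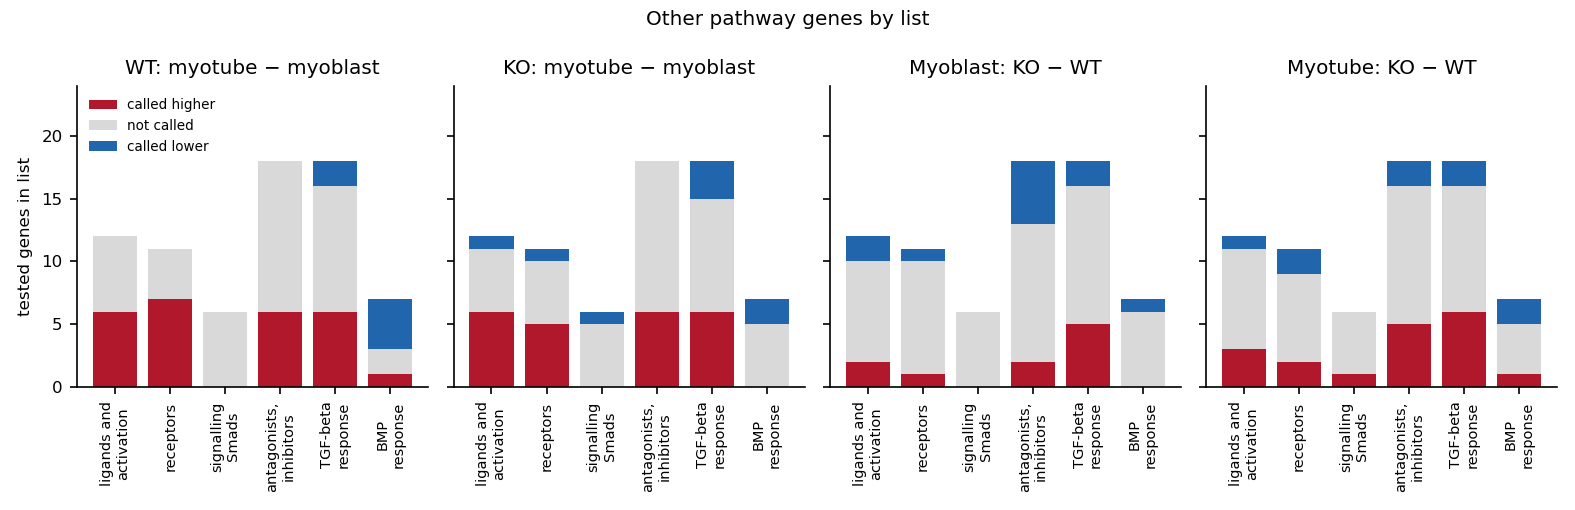
Tested pathway genes outside the 10 members, in 6 lists and 4 comparisons, stacked by outcome (called higher, not called, called lower at an adjusted p under 0.05). In the differentiation panels no receptor gene fell in WT cells and 4 of 7 BMP response genes did, and in the myoblast panel 5 of 18 antagonists and inhibitors were lower in Fam134b KO cells. Of all tested genes 9.16% fell in WT differentiation and 8.50% were lower in Fam134b KO myoblasts.

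Of the 12 tested ligands, latent binding proteins and activators, 6 rose and 0 fell in WT differentiation and 6 rose and 1 fell in Fam134b KO differentiation. The called shares were 50% and 58.3%, beside 23.0% and 33.4% of all tested genes. Between genotypes 2 were higher and 2 lower in Fam134b KO myoblasts, and 3 were higher and 1 lower in Fam134b KO myotubes. That is 33.3% at each stage, beside 15.8% and 23.4% of all tested genes. Ltbp4, which tethers latent TGF-beta to the matrix, rose by 1.74 on the log2 scale in WT cells and by 2.09 in Fam134b KO cells (adjusted p = 9.23e-04 and 7.43e-05). Gdf15, a stress-induced ligand, rose by 1.81 in WT cells (adjusted p = 0.00325), and Furin, a protease that cleaves TGF-beta precursors, rose by 1.00 in Fam134b KO cells (adjusted p = 2.87e-04). In Fam134b KO myoblasts Gdf15 and Lrrc32, a membrane anchor of latent TGF-beta, were higher by 1.90 and 1.91 (adjusted p = 0.00224 and 0.00162). WT myoblasts had 3 to 16 reads of Gdf15 and 1 to 4 reads of Lrrc32 per sample. Ltbp2 was lower in Fam134b KO myotubes, with a log2 difference of -1.71 (adjusted p = 0.00105) and fell by 1.48 in Fam134b KO differentiation (adjusted p = 0.00222).

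Some calls of this list were lost in other settings. Ltbp2 and Furin were lower in Fam134b KO myoblasts, with log2 differences of -1.10 and -0.58 (adjusted p = 0.0316 and 0.0339), and both calls were lost most clearly without Fam134b KO myoblast 2 (adjusted p = 0.111 and 0.109). The Ltbp2 call was also lost without any of the WT myoblasts or Fam134b KO myoblasts 3 or 4, and the Furin call without WT myoblasts 1, 3 or 4 or Fam134b KO myoblasts 1 or 4, and after total scaling or quantile normalization (adjusted p = 0.0647 and 0.0514). Inhbb, the subunit of activin B, was higher in Fam134b KO myotubes by 0.91 (adjusted p = 0.0131), which held without each single sample, and its call was lost with sample weights (adjusted p = 0.0792) and without both samples of fewest reads, Fam134b KO myotubes 2 and 4 (adjusted p = 0.0563). Ltbp1 was higher in Fam134b KO myotubes by 0.89 (adjusted p = 0.0279) and lost its call without any of WT myotubes 2, 3 or 4 or Fam134b KO myotubes 1 or 2, with an adjusted p of up to 0.0792, and with sample weights (adjusted p = 0.0695).

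Of the 11 tested receptors and co-receptors, 7 rose and 0 fell in WT differentiation, and 5 rose and 1 fell in Fam134b KO differentiation. The called shares were 63.6% and 54.5%, beside 23.0% and 33.4% of all tested genes. Hfe2 (also named Hjv) encodes hemojuvelin, a BMP co-receptor of the repulsive guidance molecule family that is abundant in skeletal muscle. The normalized count was 18.5, 15.4, 17.0 and 21.4 in WT myoblasts and 281, 154, 342 and 249 in WT myotubes. Among knockout samples it was 0, 0, 0 and 1.67 in myoblasts, from 2 reads in all, and 90.04, 78.8, 81.9 and 55.9 in myotubes. The 4 groups did not overlap, in the same order as those of Fst. Hfe2 rose by 3.71 on the log2 scale in WT cells (adjusted p = 6.03e-08). Its mean in Fam134b KO myotubes was 29.2 times the floor of 3 reads per sample in Fam134b KO myoblasts, and its mean in WT myoblasts 6.89 times that floor. These ratios do not cover the spread between samples. In myotubes Hfe2 was lower in the knockout, with a log2 difference of -1.69 (adjusted p = 8.68e-04). Rgma, of the same family, moved the other way between genotypes, at 18.7 ± 6.97 and 35.0 ± 5.27 normalized counts in WT and Fam134b KO myoblasts and 55.1 ± 9.76 and 164 ± 25.3 in WT and Fam134b KO myotubes (SD, n = 4). It rose by 1.57 in WT differentiation (adjusted p = 1.71e-04) and was higher in Fam134b KO by 0.94 in myoblasts (adjusted p = 0.0150) and 1.56 in myotubes (adjusted p = 1.85e-04). The myoblast call of Rgma was lost without WT myoblast 3 (0.69, adjusted p = 0.0747) and without Fam134b KO myoblast 4 (0.87, adjusted p = 0.0510).

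Tgfbr3 encodes betaglycan, the co-receptor that presents TGF-beta2 to the receptor kinases. It rose by 3.13 on the log2 scale in Fam134b KO differentiation (adjusted p = 7.56e-06) and was higher in Fam134b KO than in WT myotubes by 2.29 (adjusted p = 4.83e-04), with 40.0 to 93.4 and 6.51 to 25.0 normalized counts. Acvr2b encodes a type II receptor through which myostatin and activins act. In myotubes it was at a normalized count of 10.2 to 22.4 for WT and 0 to 5.40 for Fam134b KO, from 0 to 6 reads in the latter, a difference of -2.24 (adjusted p = 0.00210). Acvr2a, another type II receptor gene of the list, was more abundant in myotubes and did not go the same way. It was at 27.9 to 59.4 normalized counts for WT and 34.2 to 93.4 for Fam134b KO (means 46.4 and 63.25), and is named after its values were seen. The fall of Acvr2b in Fam134b KO differentiation was 1.44 (adjusted p = 0.0276), a call that was lost without any of Fam134b KO myoblasts 1, 3 or 4 (adjusted p 0.0501 to 0.0653) and without Fam134b KO myotube 2 (-0.89, adjusted p = 0.0836), and also with no filter, with the 8 samples compared alone, with sample weights and with voom (adjusted p 0.0538 to 0.0947). Between genotypes 1 of 11 was higher and 1 lower in Fam134b KO myoblasts (18.2%, near the 15.8% of all tested genes), and 2 were higher and 2 lower in Fam134b KO myotubes (36.4%, beside 23.4%).

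**Figure D4:**
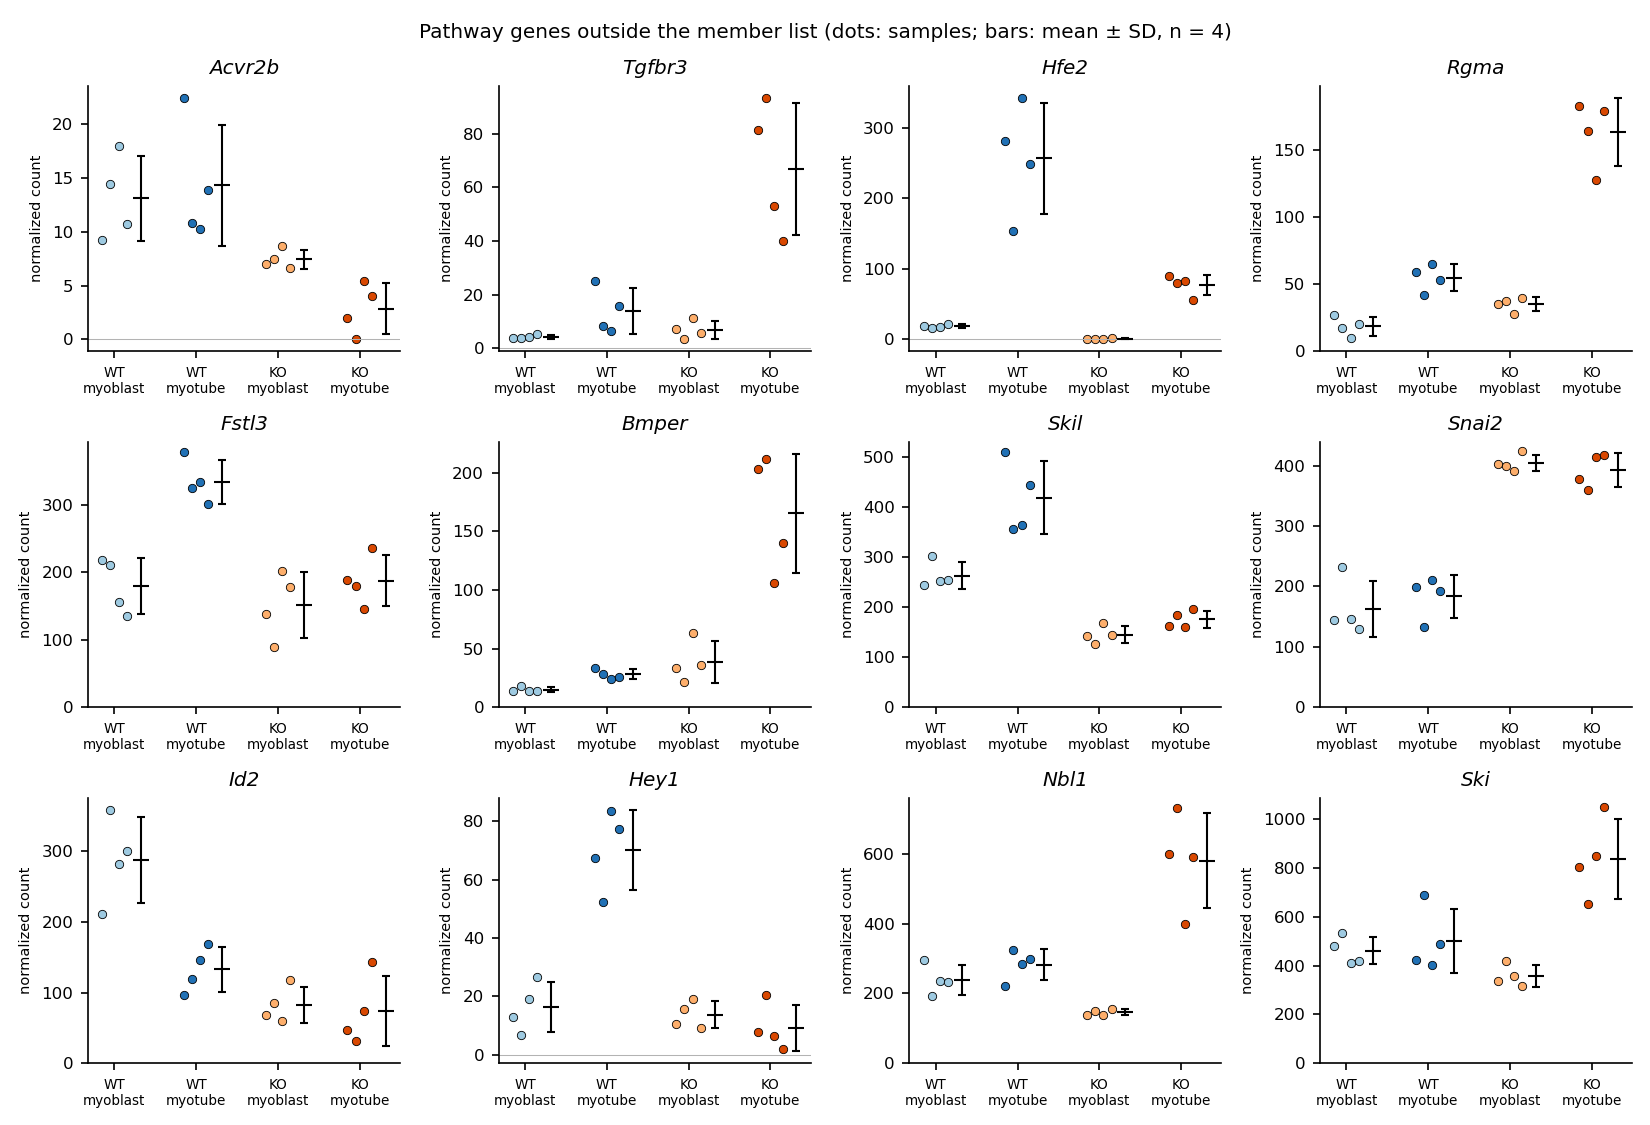
Normalized count of 12 pathway genes outside the members on linear axes, by group, chosen for the plot after their values were seen. Dots are samples and bars are the mean ± SD of 4 samples; Hfe2 is at 0 to 1.67 in Fam134b KO myoblasts, and Bmper, Rgma, Tgfbr3, Nbl1 and Ski are at their highest mean in Fam134b KO myotubes.

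Of the 6 tested signalling Smads, 0 were called in WT differentiation with limma, beside 23.0% of all tested genes. In Fam134b KO differentiation 1 fell (16.7%, beside 33.4%). This was Smad2, the TGF-beta and activin effector, which fell by 1.15 on the log2 scale (adjusted p = 8.87e-04), with 162 ± 12.0 normalized counts in Fam134b KO myoblasts and 77.8 ± 30.1 in Fam134b KO myotubes (SD, n = 4). Between genotypes 0 of 6 were called in myoblasts, beside 15.8% of all tested genes. In myotubes 1 was higher in Fam134b KO cells (16.7%, beside 23.4%). That gene was Smad3 (0.61, adjusted p = 0.0172), named after its value was seen because it was the single call. Its groups overlapped, and the call was lost without WT myotube 4 (0.56, adjusted p = 0.0544) and with the 8 samples compared alone (adjusted p = 0.0679).

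Of the 18 tested antagonists and intracellular inhibitors, 6 rose and 0 fell in each differentiation. Each count is 33.3% of the list, beside 23.0% of all tested genes in WT cells. In Fam134b KO cells 33.4% of all tested genes were called, so the list is at that share. Dcn encodes decorin, a matrix proteoglycan that binds TGF-beta, and is also on the fibroblast marker list. Dcn was at 17.1 to 81.2 normalized counts in WT myotubes and had 0 to 3 reads in WT myoblasts. The WT myotube mean was 17.7 times the floor of 3 reads per sample in WT myoblasts. In Fam134b KO differentiation Dcn rose by 5.58 on the log2 scale (adjusted p = 2.53e-08), from 1 to 6 reads per myoblast sample. Chrd encodes chordin, a BMP antagonist, and was at 11.7 to 29.4 normalized counts in WT myotubes. The mean there was 5.58 times the floor of 3 reads per sample in WT myoblasts, where Chrd had 0 to 1 reads. Bmper, which encodes a secreted BMP regulator, rose by 2.12 in Fam134b KO differentiation and was higher in Fam134b KO than in WT by 1.20 in myoblasts and 2.47 in myotubes (adjusted p = 9.79e-06, 0.00587 and 4.33e-06). Lefty1, an antagonist of Nodal signalling, was higher in Fam134b KO by 1.23 in myoblasts and 1.60 in myotubes (adjusted p = 0.00198 and 1.65e-04).

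Of the same 18 genes, 2 were higher and 5 lower in Fam134b KO myoblasts, and 5 were higher and 2 lower in Fam134b KO myotubes. That is 38.9% at each stage, beside 15.8% and 23.4% of all tested genes. The 5 that were lower in myoblasts were Pmepa1, Tgif2, Skil, Nbl1 and Grem1, of which Skil, Nbl1 and Grem1 are named to complete the count. Skil, a Smad co-repressor that TGF-beta itself induces, was at 418 ± 72.9 in WT and 176 ± 17.2 normalized counts in Fam134b KO myotubes (SD, n = 4), a log2 difference of -1.24 (adjusted p = 1.05e-05). Fstl3, a follistatin-like binder of activins and myostatin, was lower in Fam134b KO myotubes, with a log2 difference of -0.85 (adjusted p = 0.00904), in the same direction as Fst. Pmepa1, a TGF-beta-induced feedback inhibitor, was lower in Fam134b KO myoblasts, with a log2 difference of -0.94 (adjusted p = 4.46e-04), and Tgif2, a co-repressor, was lower there, with a difference of -1.33 (adjusted p = 0.0497). The Tgif2 call sat at the threshold and was lost with the replicate number as a block (adjusted p = 0.0720), with no filter (adjusted p = 0.0767), with total scaling, a minimum count of 50 or a pseudocount of 0.5 (adjusted p 0.0524 to 0.0548). It was also lost in 9 of the 16 fits that left out a sample, with an adjusted p of up to 0.139 without WT myoblast 2. The samples concerned were WT myoblasts 1, 2 and 4, WT myotubes 3 and 4, Fam134b KO myoblasts 1, 3 and 4 and Fam134b KO myotube 1.

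Of the 18 tested TGF-beta response genes, 6 rose and 2 fell in WT and 6 rose and 3 fell in Fam134b KO differentiation. The called shares were 44.4% and 50%, beside 23.0% and 33.4% of all tested genes. The members of this list did not move as a block. The fibrillar collagens Col1a1 and Col3a1 rose by 2.07 and 2.50 on the log2 scale in WT cells (adjusted p = 1.65e-04 and 2.62e-05), and Col3a1 rose by 2.45 in Fam134b KO cells (adjusted p = 1.50e-05). Thbs2, a matrix glycoprotein, rose by 3.45 in Fam134b KO cells (adjusted p = 3.52e-07). Cnn1 (calponin) fell by 2.64 in WT cells and by 2.49 in Fam134b KO cells (adjusted p = 1.66e-05 and 1.63e-05), and Tagln (transgelin) fell by 1.76 in WT cells (adjusted p = 3.00e-05). Acta2, the smooth-muscle actin gene of the same list, differed by -0.18 in WT and by -0.01 in Fam134b KO cells (adjusted p = 0.670 and 0.976), and is named after its values were seen. Ctgf, a matricellular protein gene, fell by 2.90 in Fam134b KO cells (adjusted p = 6.87e-04), with 0 to 6 reads per sample in Fam134b KO myotubes.

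Between genotypes, 5 TGF-beta response genes were higher and 2 lower in Fam134b KO myoblasts, and 6 were higher and 2 lower in Fam134b KO myotubes. The called shares were 38.9% and 44.4%, beside 15.8% and 23.4% of all tested genes. Col1a2 and Snai2, a repressor of epithelial genes, were higher in Fam134b KO myoblasts by 1.57 and 1.34 (adjusted p = 6.43e-04 and 1.00e-05), and Snai2 and Thbs2 were higher in Fam134b KO myotubes by 1.11 and 2.67 (adjusted p = 1.42e-04 and 2.58e-05). Tagln was lower in Fam134b KO myoblasts, with a log2 difference of -0.84 (adjusted p = 0.0227), which was lost without WT myoblasts 3 or 4 or Fam134b KO myoblasts 2 or 3 (adjusted p 0.0579 to 0.0786). The summed fibroblast markers were also higher in Fam134b KO than in WT myoblasts (75.9 to 107 against 40.1 to 73.3). There the sum rested on Pdgfrb (means 80.9 and 49.1), with Dcn at 2.36 and 1.16. In myotubes, where the sum rested on Pdgfrb and Dcn, the ranges of the summed markers overlapped (226 to 513 against 79.2 to 264). Their part in the collagen and Thbs2 values was not tested.

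Of the 7 tested BMP response genes, 1 rose and 4 fell in WT differentiation, and 0 rose and 2 fell in Fam134b KO differentiation. The called share was 71.4% in WT cells, beside 23.0% of all tested genes. In Fam134b KO cells it was 28.6%, near the 33.4% of all tested genes. Id2, an inhibitor of myogenic basic helix-loop-helix factors, fell by 1.12 on the log2 scale in WT cells (adjusted p = 0.0183), a call that was lost without WT myoblast 2 (-1.0, adjusted p = 0.0570) or WT myotube 1 (-0.98, adjusted p = 0.0701). In Fam134b KO myoblasts Id2 was lower than in WT, with a log2 difference of -1.81 (adjusted p = 3.86e-04), at 59.9 to 118 against 211 to 359 normalized counts. Atoh8, a transcription factor gene, fell by 1.20 in WT cells (adjusted p = 0.00333) and by 0.77 in Fam134b KO cells (adjusted p = 0.0356), the latter call being lost without any of Fam134b KO myoblasts 1, 3 or 4 or Fam134b KO myotubes 1, 2 or 3 (adjusted p up to 0.102), with no filter (adjusted p = 0.0606) and with the 8 samples compared alone (adjusted p = 0.0588). Hey1, a transcriptional repressor gene that Notch also induces, rose by 2.16 in WT cells (adjusted p = 0.00233) and was lower in Fam134b KO myotubes, with a log2 difference of -3.13 (adjusted p = 6.72e-05). Between genotypes 0 of 7 were higher and 1 lower in Fam134b KO myoblasts (14.3%, near the 15.8% of all tested genes). In Fam134b KO myotubes 1 was higher, with overlapping groups, and 2 were lower (42.9%, beside 23.4%).

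In the interaction of genotype and stage, 4 of the 72 pathway genes were called (5.56%, beside 3.45% of all tested genes). Nbl1, a secreted BMP antagonist, changed by 0.24 in WT and by 1.95 in Fam134b KO differentiation, a difference of 1.71 on the log2 scale (SE 0.26, adjusted p = 3.26e-04), and its normalized count in Fam134b KO myotubes (399 to 730) was above every other sample. Ski, a Smad co-repressor, changed by 0.09 and by 1.21, a difference of 1.12 (SE 0.26, adjusted p = 0.0152), with 652 to 1049 normalized counts in Fam134b KO myotubes and 317 to 418 in Fam134b KO myoblasts. Hey1 rose in WT cells and changed by -0.82 in Fam134b KO cells (adjusted p = 0.191), a difference of -2.98 (SE 0.67, adjusted p = 0.0140), with myotubes at 52.2 to 83.6 normalized counts for WT and 2.0 to 20.4 for Fam134b KO. The fitted difference of Hfe2 was 2.20 (SE 0.47, adjusted p = 0.00998), but with 0 to 2 reads in Fam134b KO myoblasts it depends on the pseudocount, and it was 0.45 (adjusted p = 0.521) with a pseudocount of 5 and 1.38 (adjusted p = 0.0809) after quantile normalization.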

How the data were processed

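mRNA was sequenced as single-end reads from 16 samples with a commercial digital mRNA service. The deposited table holds 1 log2 value per gene and sample. Per the labels and the methods of the study, the authors trimmed and filtered the reads, aligned them with STAR 2.6.0a to mm10 and counted them on genes with HTSeq; the tool for normalization is not given in the sources used here. From the values, the authors divided counts by a sample factor, added 1 and took the log2. Reads behind each value were recovered as whole multiples of 1 step per sample (100% of values above 0, tolerance 0.01 of a read) and used for depth, floors (3 reads per sample) and voom. Counting ratios have exact 95% binomial intervals.

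Groups follow the sample titles, whose labels call the replicates biological; no culture or batch is named, so p-values measure the spread between these samples. The 10767 genes that reached a normalized count of 10 in 4 or more samples were fitted with limma 3.58.1 in R 4.3.3 (lmFit, contrasts.fit and eBayes with trend; 4 group means, all 16 samples, no covariate), with Benjamini-Hochberg adjustment over all tested genes and a threshold of 0.05. The design had foreseen a log2 step, which the deposited log2 values already contain. The fit was run on simulated data with the same dispersion in every group, which does not cover the larger spread of Fam134b KO myotubes. In addition to the members and Fam134b, the genes named are, per list and comparison, up to 2 with the largest positive and up to 2 with the largest negative difference among those called with separate groups, pathway genes called in the interaction, and the 3 genes closest in pattern to each member. A few others are named to complete a count or were chosen after their values were seen, as the text says. A result that the naming rule would give is not reported here. Members and lists were chosen with earlier results of these data known. For genes at most 3 reads in every sample of a group, the ratio given is the mean of the other group over the highest floor. It bounds the ratio of the means and does not cover the spread between samples. Same-numbered samples did not deviate together on average (mean correlation of deviations 0.033), and the samples were treated as unpaired. Alternatives were other pseudocounts, filters, scalings, weights, thresholds, a replicate block, fewer samples and each sample left out.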

Additional observations from a re-analysis of the deposited data

Results flagged for a closer look

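In 3 of the 36 groups of member values, 1 of the 4 samples stood apart from the other 3 by a gap-over-range above Dixon's critical value, where chance alone gives about 1 in 20 groups. Inhba in Fam134b KO myotube 4 was at a normalized count of 179.8 (gap over range 0.887), Tgfbr2 in WT myotube 2 was at 115.1 (0.834) and Smad6 in WT myoblast 3 was at 6.0, from 6 reads (0.90). Fam134b KO myotube 4 is the sample with the fewest reads. Values without these samples stand in the report where they changed a call.

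For 4 pathway genes outside the members, the change with differentiation differed between the genotypes by the test of the interaction. The log2 differences were 2.20 for Hfe2, 1.71 for Nbl1, 1.12 for Ski and -2.98 for Hey1. The value of Hfe2 depends on the pseudocount, as its level in Fam134b KO myoblasts rests on 2 reads.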

How the results depend on the processing

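The 45 differences of members were each refitted under 26 to 28 alternative settings, which gave 1236 values in all. Of the 45 differences, 16 kept their direction and side of the threshold throughout. In at least 1 setting 15 gained a call, 4 lost one and 10 changed sign, none of the last being called. Of 62 differences of pathway genes 13 lost a call and 0 changed sign, and both of Fam134b were kept. Causes were not tested, apart from fewer samples or genes by construction.

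The number of members called between genotypes in myoblasts was 1 and became 0 with a pseudocount of 5, a minimum count of 50 or a threshold of 0.01, 3 with the 8 samples compared alone, 6 with sample weights, and 2 without both Fam134b KO myotubes of fewest reads (chosen after seeing the data). Leaving out 1 sample gave 1 to 2. In myotubes it was 2 and became 1 with no filter, a minimum of 50, total scaling, the 8 samples alone or a threshold of 0.01. It became 3, with Inhba added, with sample weights or without both Fam134b KO myotubes of fewest reads, and was 1 to 2 without 1 sample. Fst was not tested with a minimum of 50, so the counts at both stages lack it there. In Fam134b KO differentiation it was 4 and became 7 with sample weights, and 4 to 6 without 1 sample. In WT differentiation leaving out 1 sample gave 4 to 7. In the interaction it was 0, became 2 with sample weights, and was 0 to 1 without 1 sample (1 without WT myotube 2). Pathway genes called went from 21 to 33 with sample weights and 10 at a threshold of 0.01 in myoblasts, and at that threshold from 32 to 21 in WT differentiation, 27 to 15 in myotubes and 4 to 2 in the interaction. Leaving out 1 sample gave 22 to 34, 23 to 33, 14 to 23, 21 to 28 and 4 to 6 pathway genes in the 5 comparisons. The share of all tested genes called under these settings was not computed. A changed count therefore cannot be read as particular to the members or the pathway genes.

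With the replicate number as a block, the members called in myotubes were 1, since Tgfb1 had an adjusted p of 0.0571. Same-numbered samples did not deviate together on average (mean r 0.033, range -0.223 to 0.369, with 7 of 16 samples closest to their own number). Of the 24 same-numbered pairs 10 had r over 0.1, and whether some samples were handled together is not known.

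Signs changed for Smad6 in WT differentiation (-0.13, quantile), Smad6 between myotubes (0.48 quantile, 0.041 voom, 0.086 without both low-read samples), Smad7 between myoblasts (0.12, sample weights), Smad7 between myotubes (0.061, without both), and, in the interaction, Inhba (-0.00084 quantile, -0.18 weights, -0.16 without both), Smad7 (0.070 quantile, 0.051 voom, 0.17 without both), Tgfb2 (-0.11, weights) and Tgfbr2 (-0.0031, weights). Without 1 sample, Bmp4 ranged from -0.35 to 0.020 in Fam134b KO differentiation and -0.16 to 0.19 between myotubes, Smad6 from -0.29 to 0.21 between myotubes, Smad7 from -0.30 to 0.0061 between myotubes and -0.28 to 0.20 between myoblasts, and the interaction of Inhba from -0.18 to 0.17 and of Smad7 from -0.33 to 0.15. Between myoblasts, Inhba was called with the 8 samples compared alone, sample weights or voom (adjusted p 0.00725 to 0.0410) and Tgfb2, Tgfb3 and Bmp4 with sample weights (0.00874 to 0.0293). Sample weights also called Inhba between myotubes (0.0179), the fall of Smad6 in Fam134b KO cells (0.0392), that of Smad7 in both genotypes (0.0158 and 0.0231) and the interactions of Tgfb3 and Smad6 (0.0189 and 0.0395). Quantile normalization called the fall of Smad7 in both genotypes (0.0354 in WT and 0.0451 in Fam134b KO cells), and the 8 samples alone that in WT cells (0.0371). Low read numbers limit Fst in Fam134b KO myoblasts, Smad6, Bmp4 and Acvr2b. They also limit pathway genes such as Ctgf and Dcn in Fam134b KO differentiation and Lrrc32 between myoblasts. The smallest log2 differences of these over the settings were -1.65, 4.33 and 1.175, where each was still called.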
